A study of Mus musculus with 32 samples.

Results

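The complement components and receptors described here are 9 genes chosen by name from the 18588 genes of a log2 signal table: C1qa, C1qb, C1qc, C4b, C3, Cfb, Cfp, C3ar1 and C5ar1. Complement is an innate immune cascade in which a recognition molecule or spontaneous hydrolysis leads to cleavage of C3, tagging of surfaces with C3 fragments and release of small peptides that act on receptors. In the brain, microglia are the main producers of C1q, and C1q and C3 can tag synapses that microglia then engulf through receptors for C3 fragments. The genes are taken in the order of the cascade: the C1q chains and C4b of the classical pathway, the central component C3, Cfb and Cfp of the alternative pathway, and the anaphylatoxin receptors C3ar1 and C5ar1.

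Microglia of female rTg4510 mice were compared with microglia of female wild type (WT) littermates at 2, 4, 6 and 8 months of age. rTg4510 mice carry 2 transgenes, mutant human tau (P301L) under a tetracycline-responsive element and a tetracycline transactivator under the CaMKIIα promoter, so the tau transgene is driven in forebrain neurons. The WT littermates carry neither transgene, and the labels give their strain as 129/FVB F1. The labels name no treatment. CD11b beads captured the cells from pooled forebrains, so each library stands for a pool of mice and its spread is that between pools. Of 32 libraries, 28 were used, with n = 4 in each genotype at ages 2 and 6 months and n = 3 at ages 4 and 8 months. Left out were replicate 3 of WT and rTg4510 at 4 months and replicate 4 of both at 8 months, which had failed the QC of the authors and stood apart in C1qa and C1qb. Values are log2 gene signals with the same median, 5.63, in every library, and they are not scaled to gene length, so levels are compared between groups for a gene and not between genes. A gene was called when the Benjamini-Hochberg FDR of a limma linear model was under 0.05 and the change exceeded 1.5 fold.

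The 9 microglia markers used, among them Tmem119 and P2ry12, were all in the table, with a summed level (log2) of 14.56 to 15.09 in WT and 14.09 to 14.79 in rTg4510 libraries. At 2, 4, 6 and 8 months 1, 3, 3 and 4 of the 9 were called lower and 0 higher. The 8 neutrophil markers spanned 9.02 to 10.38 in WT and 7.40 to 10.39 in rTg4510, with 8 of 8 called lower at 6 months and 6 of 8 at 8 months. The 8 border macrophage markers spanned 10.59 to 11.41 in WT and 10.26 to 10.92 in rTg4510, with 2 of 8 called lower at 6 months and 0 at the other ages. WT replicate 1 at 8 months held the highest summed level of the 6 astrocyte markers (11.56) and of the 6 oligodendrocyte markers (10.59). In these bulk samples, fewer cells of a type and less RNA per cell cannot be told apart.

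Promoter windows of 4 of the genes are shown, chosen by the expression results below, and no result below rests on a window. C1qb and C1qc are neighbours that moved together, and C3ar1 and C3 had the largest called changes of the 9 genes. Each window runs from 250 bases before to 50 bases after the start site of the RefSeq annotation of GRCm38.p6, 5′ to 3′ on the minus strand on which all 4 genes lie, and capitals mark matches to the motifs searched. The C1qb window is chr4:136886151-136886450, that of C1qc chr4:136892865-136893164, that of C3ar1 chr6:122856108-122856407 and that of C3 chr17:57228087-57228386.
C1qb: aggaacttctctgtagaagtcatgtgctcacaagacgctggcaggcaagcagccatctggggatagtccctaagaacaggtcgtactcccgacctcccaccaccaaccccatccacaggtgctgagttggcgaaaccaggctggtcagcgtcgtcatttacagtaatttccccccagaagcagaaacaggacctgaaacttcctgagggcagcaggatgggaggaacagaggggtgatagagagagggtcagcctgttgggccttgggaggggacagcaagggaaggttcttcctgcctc
C1qc: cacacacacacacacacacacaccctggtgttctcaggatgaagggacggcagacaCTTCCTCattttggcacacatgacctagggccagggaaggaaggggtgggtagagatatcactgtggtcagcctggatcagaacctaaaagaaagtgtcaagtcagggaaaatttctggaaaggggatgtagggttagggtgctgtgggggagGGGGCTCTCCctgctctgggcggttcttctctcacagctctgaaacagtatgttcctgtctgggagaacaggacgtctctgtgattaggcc
C3ar1: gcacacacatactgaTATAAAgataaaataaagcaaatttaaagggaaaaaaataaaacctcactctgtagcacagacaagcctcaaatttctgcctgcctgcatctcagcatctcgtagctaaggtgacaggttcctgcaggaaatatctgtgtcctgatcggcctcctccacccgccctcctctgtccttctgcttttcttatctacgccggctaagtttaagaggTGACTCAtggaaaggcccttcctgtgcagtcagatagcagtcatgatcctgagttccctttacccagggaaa
C3: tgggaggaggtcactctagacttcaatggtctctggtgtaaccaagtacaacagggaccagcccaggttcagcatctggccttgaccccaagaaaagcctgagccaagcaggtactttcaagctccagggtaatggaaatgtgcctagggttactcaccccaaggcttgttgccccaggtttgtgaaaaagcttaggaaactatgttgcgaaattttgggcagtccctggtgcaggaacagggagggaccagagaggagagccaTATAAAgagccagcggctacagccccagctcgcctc
The table of windows held 6 of the 9 genes, and those of C1qa, C4b and Cfb were not analysed here. The motifs searched on both strands were the letters TATAAA, the STAT-type motif TTCNNNGAA, the AP-1-type motif TGANTCA, the PU.1-type motif GAGGAAG, and the ISRE and NF-kappaB consensus motifs. No match overlapped another. The C1qb window held none of the motifs, nor did those of C5ar1 and Cfp, which are not shown. The C1qc window held GAGGAAG on the opposite strand, which 13.6% of the 32851 mouse windows of the same length held, and an NF-kappaB match, which 8.46% held. The C3ar1 window held TGANTCA (7.81% of windows) at -22 and TATAAA (13.6%) at -235 from the start site, and the C3 window held only TATAAA, at 14 bases after it. Neither TATAAA lies where a TATA box usually does. A match is a stretch of letters and no evidence of binding. The STAT-type motif and the ISRE consensus were in 8.3% and 3.44% of windows and in none of the 4 shown.

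At 2 months 1 of the 9 complement genes was called higher in rTg4510 and 0 lower, beside 1.58% and 0.403% of all genes. At 4 months 4 were called higher and 1 lower, beside 9.47% and 4.33%. At 6 months 5 were called higher and 0 lower, beside 11.3% and 8.54%. At 8 months 6 were called higher and 0 lower, beside 10.5% and 5.37%. After quantile normalization the counts called higher were 0, 3 and 3 at 2, 6 and 8 months, and at 4 months C1qb was no longer called. The median log2 fold change of the 9 genes was 0.08, 0.50, 0.70 and 0.73 at the 4 ages, beside 0.01, -0.04, -0.04 and -0.01 over all genes. By FDR alone, 1, 6, 6 and 6 of the 9 differed, beside 6.03%, 23.2%, 34.1% and 25.7% of all genes. The genes called higher at 8 months were C1qa, C1qb, C1qc, C3, Cfb and C3ar1, and the one called lower at 4 months was Cfp. C4b and C5ar1 were called at no age. At an unadjusted p under 0.05 in limma, 1 gene was lower at 2 months (Cfp), 1 at 6 months (C4b) and 0 at 8 months, and with moderated variances 0 were called lower at these ages.

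**Figure D1:**
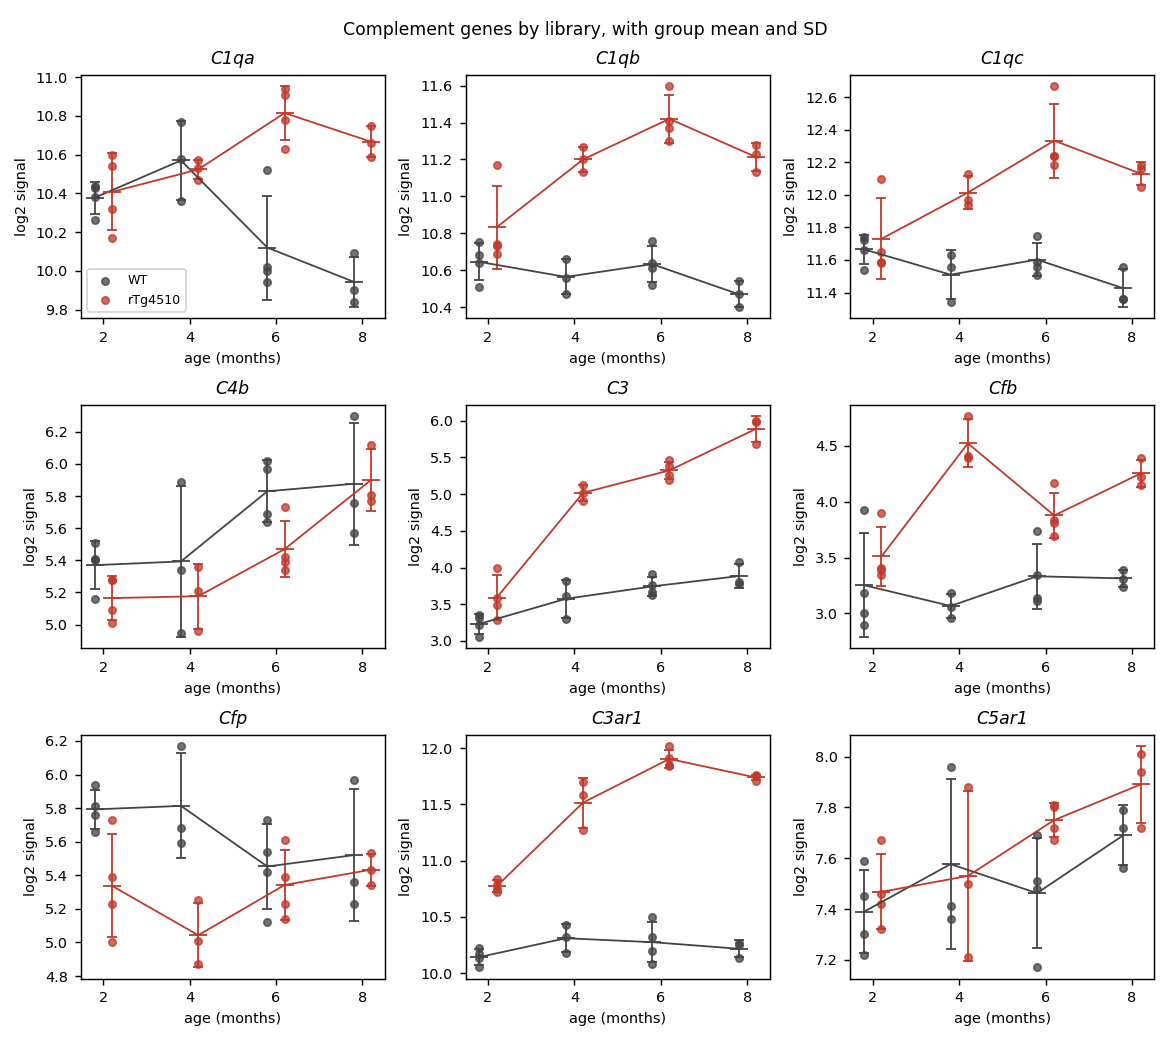
Log2 signal (y axis) of the 9 complement genes in 28 libraries by age in months (x axis), WT in grey and rTg4510 in red, with 1 point per library, bars for mean ± SD and lines joining the means. C3ar1 libraries of rTg4510 lie above those of WT at all 4 ages, and C4b and C5ar1 libraries overlap at every age.

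**Figure D2:**
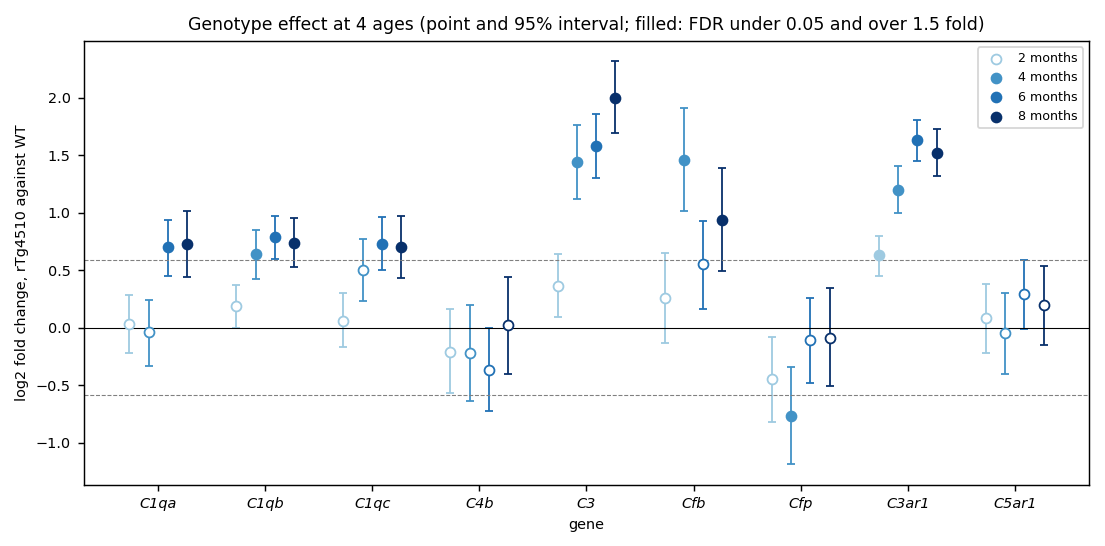
Log2 fold change of rTg4510 against WT (y axis) for the 9 genes (x axis) at 4 ages, as the estimate with its 95% interval. Filled points were called, dashed lines mark 1.5 fold, and the largest estimate is that of C3 at 8 months (2.00).

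C1qa, C1qb and C1qc encode the A, B and C chains of C1q, the recognition molecule of the classical pathway. They lie side by side on chromosome 4 of GRCm38.p6, C1qb from 136880126 to 136886200, C1qc from 136889801 to 136892936 and C1qa from 136895916 to 136898844, with 3600 bases between C1qb and C1qc and 2979 between C1qc and C1qa. C1qb was called from 4 months, and C1qc and C1qa at 6 and 8 months. The flanking genes Ephb2 and Epha8 were not analysed here.

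The C1qb signal was 10.66, 10.56 and 10.47 in WT and 11.13, 11.20 and 11.27 in rTg4510 at 4 months, with no overlap. It was 10.52 to 10.76 (median 10.63) in the 4 WT and 11.30 to 11.60 (median 11.39) in the 4 rTg4510 libraries at 6 months. At 8 months the libraries were at 10.47, 10.40 and 10.54 in WT and at 11.13, 11.28 and 11.23 in rTg4510. At these ages every rTg4510 library lay above every WT library. By log2 fold change C1qb rose by 0.64 (SE 0.102, FDR 6.66e-05), 0.79 (SE 0.0884, FDR 3.8e-07) and 0.74 (SE 0.102, FDR 8.6e-06) at 4, 6 and 8 months. At 2 months it was 0.19, which was not called, and the groups overlapped.

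C1qc followed C1qb. Its signal at 8 months was 11.36, 11.36 and 11.56 in WT and 12.05, 12.18 and 12.16 in rTg4510, and at 6 months 11.51 to 11.75 (median 11.57) in WT and 12.18 to 12.67 (median 12.24) in rTg4510. The log2 fold change of C1qc was 0.50 (SE 0.129, FDR 0.00633) at 4 months, which is 1.42 fold and under the fold threshold, then 0.73 (SE 0.111, FDR 2.26e-05) and 0.70 (SE 0.129, FDR 0.000266). The groups did not overlap at 4, 6 and 8 months, and at 2 months the difference was 0.06. Across the 28 libraries C1qb and C1qc signals had a Pearson r of 0.978, the closest likeness of any gene of the table to either, and deviations from the group means had an r of 0.94. These are descriptions over libraries that share genotype and age.

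C1qa was not separated between genotypes at 4 months. Its signal there was 10.77, 10.58 and 10.36 in WT and 10.53, 10.47 and 10.57 in rTg4510, so the groups overlapped and the log2 fold change was -0.04 (95% interval -0.33 to 0.24). At 6 months it was 9.94 to 10.52 (median 10.01) in the 4 WT libraries and 10.63, 10.78, 10.94 and 10.91 in rTg4510, and was higher by 0.70 (SE 0.118, FDR 8.38e-05). At 8 months it was 9.90, 9.84 and 10.09 in WT and 10.66, 10.75 and 10.59 in rTg4510, and was higher by 0.73 (SE 0.137, FDR 0.000331). WT levels of C1qa were lower at 6 and 8 than at 2 and 4 months, where the WT mean was 10.38 and 10.57. Between 2 and 8 months the WT change was -0.43 (FDR 0.0587), which was not called. The genotype effect on C1qa was 0.74 larger at 6 than at 4 months (unadjusted p = 0.000571, FDR 0.132 by the limma model), which was not called either.

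The log2 ratio of C1qb to C1qa within a library puts this in 1 value. At 4 months it was -0.01 ± 0.111 (SD, n = 3) in WT and 0.68 ± 0.066 (SD, n = 3) in rTg4510, a difference of 0.68. The exact two-sided permutation test gave p = 0.1, below which n = 3 in each group cannot go. At 2 months it was 0.27 in WT and 0.43 in rTg4510, at 6 months 0.52 and 0.61, and at 8 months 0.53 and 0.54, and these pairs overlapped. The log2 ratio of C1qc to C1qb had group means of 0.82 to 1.02 over all 8 groups. It was lower in rTg4510 with no overlap at 2 months (0.99 to 1.04 in WT and 0.84 to 0.92 in rTg4510, exact permutation p = 0.0286, adjusted 0.229) and at 4 months (group means 0.95 and 0.82, exact permutation p = 0.1). Of 16 such ratios tested, chosen after the values were seen, none passed at an adjusted p under 0.05. The lowest Benjamini-Hochberg value was 0.229 (exact permutation tests). None could have passed, because an exact permutation p cannot go below 0.0286 with n = 4 in each group or 0.1 with n = 3. No conclusion is drawn from this adjustment.

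**Figure D3:**
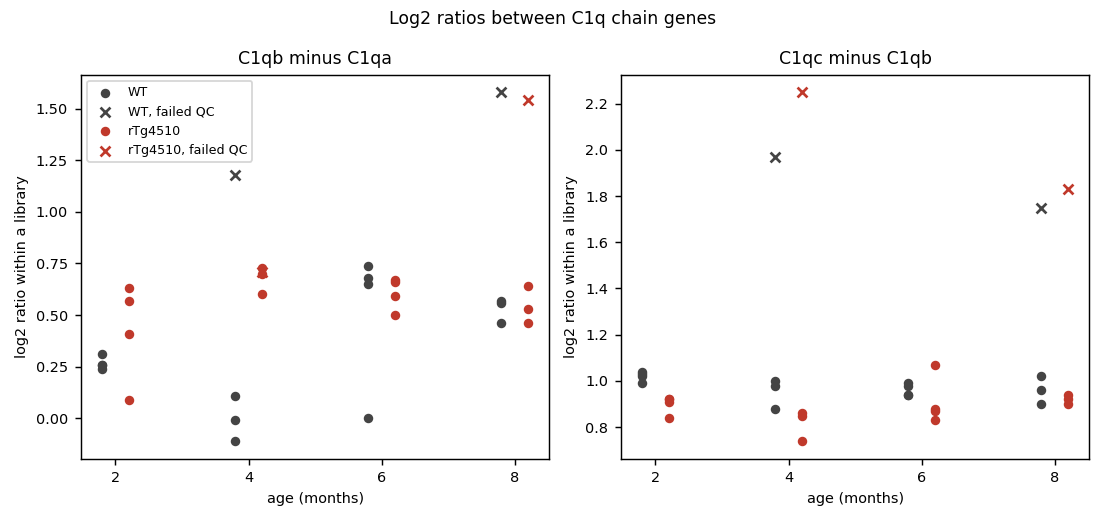
Log2 ratio within a library (y axis) of C1qb to C1qa on the left and of C1qc to C1qb on the right, by age in months (x axis), WT in grey and rTg4510 in red, with crosses for the 4 libraries that failed QC. At 4 months the kept WT libraries (-0.11 to 0.11) lie below the rTg4510 libraries (0.60 to 0.73) on the left, and on the right the 4 crosses lie above every kept library.

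The C1q calls depended on scaling. After quantile normalization the log2 fold change of C1qb was 0.26 (FDR 0.0547), 0.31 (FDR 0.0067) and 0.32 (FDR 0.0151) at 4, 6 and 8 months, that of C1qa 0.31 (FDR 0.0631) and 0.40 (FDR 0.0463) at 6 and 8 months, and that of C1qc 0.06 (FDR 0.738), 0.18 (FDR 0.153) and 0.21 (FDR 0.142) at 4, 6 and 8 months, and none of these was called. C1qa, C1qb and C1qc stood at percentiles 96.9, 97.7 and 98.8 of mean signal over all genes. With each library centred on the median of the 25% of genes with the largest mean signal, C1qa, C1qb and C1qc stayed called at 6 and 8 months, at 0.59 to 0.68, and C1qb at 4 months was 0.57 and not called. With all 32 libraries, C1qa at 6 and 8 months and C1qb at 4 and 8 months were also no longer called. The deviations of the 3 chains from their group means had an r of 0.46 to 0.61 with those of the summed microglia markers over the 28 libraries, and the part of these markers in the C1q differences was not tested.

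C4b encodes a form of C4, the thioester protein that C1-associated proteases cleave. It lies on chromosome 17 from 34728139 to 34743902, and C4a is a near-identical copy, so reads of the 2 genes may have been split and both values are uncertain. The nearest protein-coding neighbours, Tnxb and Cyp21a1, were not analysed here. C4b did not separate the genotypes at any age, and it rose with age in rTg4510. It was 5.57, 5.76 and 6.30 in WT and 5.77, 5.81 and 6.12 in rTg4510 at 8 months, listed from the lowest, a difference of 0.02. The log2 fold change was -0.21, -0.22 and -0.37 (FDR 0.115) at 2, 4 and 6 months, none called, and the groups overlapped at all 4 ages. From 2 to 8 months C4b rose by 0.73 in rTg4510 (SE 0.188, FDR 0.00709), and the WT change was 0.50 (SE 0.188, FDR 0.138). C4a rose by 0.82 in rTg4510 over the same ages (FDR 0.0017), and its WT mean went from 4.03 to 4.60, which was not called. Whether the change from 2 to 8 months differed between genotypes was not tested for either gene. The C4a signal was the most like that of C4b of all genes (r = 0.947, 28 libraries).

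C3 is the component on which all pathways converge, and its cleavage gives the tag C3b and the peptide C3a. It lies on chromosome 17 from 57203967 to 57228136. C3 had the largest increase of the 9 genes in rTg4510 at 8 months. It was low in WT, with 3.05 to 3.35 (median 3.26) in the 4 libraries of 2 months and 3.80, 4.07 and 3.78 at 8 months. In rTg4510 it was 3.28 to 4.00 (median 3.54) at 2 months, 5.01, 4.91 and 5.13 at 4 months, 5.19 to 5.46 (median 5.32) at 6 months and 5.98, 6.00 and 5.68 at 8 months. The groups overlapped at 2 months and were separate at the other ages, with a gap of 1.10 at 4 months and 1.62 at 8 months.

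The log2 fold change of C3 was 0.36 at 2 months (FDR 0.134, not called), then 1.44 (SE 0.152, FDR 3.08e-07), 1.58 (SE 0.132, FDR 4.92e-09) and 2.00 (SE 0.152, FDR 3.48e-09), which are 2.72, 2.99 and 4.01 fold. WT values of C3 were 1.44 to 1.79 above the lowest value of their library at 2 months and 1.68 to 2.31 at 4 months. The caution on low values given below for Cfb therefore holds for C3 too. The effect at 4 months exceeded that at 2 months by 1.08 (FDR 0.00191). From 6 to 8 months it grew by 0.42 (unadjusted p = 0.048, FDR 1), which was not called. Within WT, C3 rose by 0.65 from 2 to 8 months (FDR 0.0136), a call lost without WT replicate 2 of 8 months, and within rTg4510 it rose by 2.30 (FDR 3.33e-10). The genes with the most similar signal over the 28 libraries were Cybb (r = 0.977), the catalytic subunit of the phagocyte NADPH oxidase, Xdh (0.972) and H2-K1 (0.971), a classical MHC class I gene. The neighbours of C3 on the chromosome, Tnfsf14 and Trip10, were called at no age.

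Cfb encodes factor B, which supplies the protease of the alternative pathway C3 convertase. It lies on chromosome 17 from 34856374 to 34862514, 87 bases from C2, its classical pathway counterpart. Cfb was raised most at 4 months. Its signal there was 2.96, 3.18 and 3.06 in WT and 4.41, 4.39 and 4.77 in rTg4510, a rise of 1.46 on the log2 scale (SE 0.215, FDR 2.43e-05), or 2.75 fold. These WT values were only 1.46 to 1.61 above the lowest value of their library, where 3 counts over that value would stand at about 1.58 if the low values are read as log2 of a count plus 1.5, and folds of genes this low are understated on such a scale. At 8 months it was 3.24, 3.31 and 3.39 in WT and 4.22, 4.39 and 4.15 in rTg4510, a rise of 0.94 (SE 0.215, FDR 0.0022). The groups were separate at both ages.

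At 6 months Cfb was 3.34, 3.11, 3.14 and 3.74 in WT and 3.69, 3.81, 3.84 and 4.17 in rTg4510, and the groups overlapped through WT replicate 4. The log2 fold change was 0.55 (SE 0.186, FDR 0.0278), 1.46 fold and so under the fold threshold, and without that library it was 0.68 and called. It was also called without rTg4510 replicate 1 of 6 months (0.61) and after quantile normalization (0.77). At 2 months the difference was 0.26 and not called. The effect at 4 months exceeded that at 2 months by 1.20 (FDR 0.012), and the drop of 0.91 from 4 to 6 months was not called (unadjusted p = 0.00437, FDR 0.305). Nelfe, on the other side of Cfb, and C2 were called at no age, C2 with log2 fold changes of -0.21, -0.28, -0.16 and 0.34. The genes most like Cfb were Lonrf3, Xylt1 and Actr3b, at r of 0.883 to 0.886.

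Cfp encodes properdin, a positive regulator that stabilizes the alternative pathway convertase, and lies on chromosome X from 20925454 to 20931555. It was the only one of the 9 genes called lower at any age. At 4 months its signal was 6.17, 5.68 and 5.59 in WT and 4.87, 5.01 and 5.25 in rTg4510, with no overlap, and a log2 difference of -0.77 (SE 0.204, FDR 0.00837). Without WT replicate 1 it was -0.59 (FDR 0.0618) and not called, and with only the libraries of 4 months in the fit it was not called (FDR 0.11). At 2 months it was -0.45 (FDR 0.173), and at 6 and 8 months -0.11 and -0.09. Of its neighbours, Elk1 was called at no age and Timp1 was not analysed here.

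Cfp moved with markers of border macrophages, the macrophages of meninges and vessels. Over the 28 libraries the deviations of Cfp from its group means had an r of 0.86 with those of the summed level of the 8 markers, and the genes most like Cfp were Mrc1 (r = 0.862), F13a1 (0.808) and Dab2 (0.795), of which Mrc1 and F13a1 are on that list. At 4 months the summed level was 10.60 to 11.40 in WT and 10.26 to 10.54 in rTg4510, and the WT library with the highest level, replicate 1, had the highest Cfp. At that age 0 of the 8 markers were called, with a median log2 fold change of -0.52. The same r was 0.79 for C4b and 0.62 for C5ar1. For Cfp this r was 0.41 with the 4 monocyte markers and -0.10 with the 8 neutrophil markers. At 4 months the summed monocyte level was 7.30 to 7.69 in WT and 6.53 to 6.79 in rTg4510. The neutrophil level was 9.16 to 10.07 in WT and 8.22 to 9.01 in rTg4510. At that age 1 of the 4 and 0 of the 8 were called lower. The part of any of these marker lists in the Cfp difference was not tested.

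**Figure D4:**
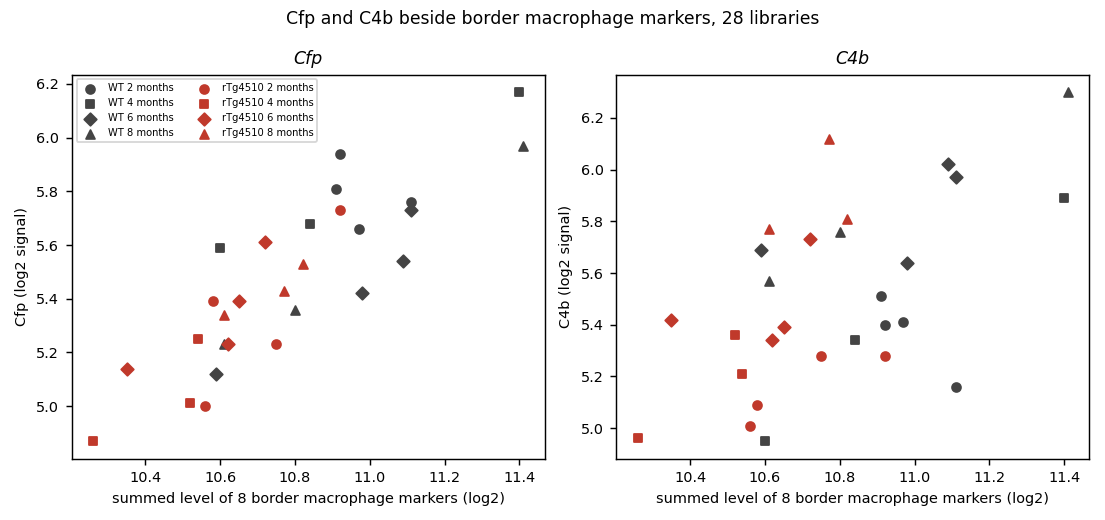
Log2 signal of Cfp (left, y axis) and C4b (right, y axis) in 28 libraries against the summed log2 level of 8 border macrophage markers (x axis), with colour for genotype and shape for age. Cfp is highest, at 6.17, in a WT library of 4 months with a marker level of 11.40, and lowest, at 4.87, in an rTg4510 library of 4 months at 10.26.

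C3ar1 encodes the receptor for C3a and lies on chromosome 6 from 122847140 to 122856157. It was the only gene of the 9 called at all 4 ages. At 2 months its signal was 10.22, 10.05, 10.13 and 10.17 in WT and 10.78, 10.75, 10.84 and 10.72 in rTg4510. At 4 months it was 10.43, 10.18 and 10.32 against 11.58, 11.27 and 11.70, at 6 months 10.08 to 10.50 (median 10.26) against 11.84 to 12.02 (median 11.88), and at 8 months 10.25, 10.27 and 10.13 against 11.71, 11.75 and 11.76. No rTg4510 library came down to a WT library at any age, and the WT group means stayed between 10.14 and 10.31.

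The log2 fold change of C3ar1 was 0.63 (SE 0.0846, FDR 0.000105), 1.20 (SE 0.0977, FDR 9.8e-09), 1.63 (SE 0.0846, FDR 6.5e-12) and 1.52 (SE 0.0977, FDR 3.11e-10), or 1.55, 2.3, 3.1 and 2.88 fold. The effect at 4 months exceeded that at 2 months by 0.58 (FDR 0.00816), which is below 1.5 fold. The call at 2 months was lost after quantile normalization (0.47) and with all 32 libraries (FDR 0.359). Within rTg4510 C3ar1 rose by 0.97 from 2 to 8 months (FDR 1.04e-07), and the WT change was 0.08 (FDR 0.712). Its most similar genes were Ctsl (r = 0.988), Npc2 (0.987) and Ctse (0.986), which encode the lysosomal protease cathepsin L, a lysosomal cholesterol carrier and the endosomal protease cathepsin E. The genes beside it, Foxj2 and Necap1, were called at no age.

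C5ar1 encodes the main receptor for C5a and lies on chromosome 7 from 16246743 to 16259540, beside C5ar2, the second C5a receptor. C5ar1 overlapped between genotypes at every age. At 8 months it was 7.72, 7.79 and 7.56 in WT and 8.01, 7.72 and 7.94 in rTg4510. Its log2 fold change was 0.08, -0.05, 0.29 (FDR 0.135) and 0.20 at the 4 ages, with a 95% interval of -0.01 to 0.59 at 6 months. Ccdc9, on its other side, was called at no age. C5ar2, 2588 bases away, was called lower at 4, 6 and 8 months, by -0.88 (SE 0.191, FDR 0.00151), -0.60 (SE 0.166, FDR 0.00749) and -0.66 (SE 0.191, FDR 0.0135). The log2 ratio of C5ar1 to C5ar2 was higher in rTg4510 by 0.83 at 4 months and 0.86 at 8 months. At 6 months it was higher by 0.89 (two-sided exact permutation test, p = 0.0286, adjusted 0.229). None of these passed after adjustment over the 16 ratios, and at these group sizes none could have. The genes most like C5ar1 were Itga4 (r = 0.763), Sash1 (0.759) and Entrez gene 791315 (0.751).

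The growth of the genotype effect with age was tested directly. From 2 to 4 months 2 of the 9 effects changed by the call rule, those of C3 and Cfb, beside 4.66% of all genes. By FDR alone 4 of the 9 changed, those of C1qb (0.45, FDR 0.0468) and C3ar1 as well, beside 1363 of all 18588 genes. From 4 to 6 months 0 of the 9 were called in limma, beside 0.156% of all genes. At an unadjusted p under 0.05 there were 4 (C1qa, Cfb, Cfp and C3ar1), beside 8.15% of all genes, and with moderated variances 0 of the 9 were called. From 6 to 8 months 0 of the 9 were called, beside 0% of all genes, with 1 (C3) at an unadjusted p under 0.05, beside 4.52% of all genes, and 0 with moderated variances. Within WT 1 of the 9 (C3) changed from 2 to 8 months, beside 1.27% of all genes. Within rTg4510 4 of the 9 (C4b, C3, Cfb and C3ar1) rose, beside 10.5% of all genes called in either direction. These comparisons share libraries with those between genotypes.

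Of 49 other complement genes listed, 31 were in the table and 18 were not analysed here, among them all 7 of the terminal pathway, so the 31 cover the early steps, the regulators and the receptors. At 2, 4, 6 and 8 months 1, 3, 3 and 3 of the 31 were called higher and 0, 3, 6 and 1 lower. Beside 1.58%, 9.47%, 11.3% and 10.5% of all genes called higher and 0.403%, 4.33%, 8.54% and 5.37% called lower, the counts called higher at 4, 6 and 8 months were near the share over all genes. The median log2 fold change of the 31 was -0.02, -0.13, -0.09 and -0.04. Of 10 proteases and recognition molecules of the classical and lectin pathways, the scavenger collectin Colec12 rose at 6 and 8 months (0.83 and 0.78) and the lectin pathway protease Masp1 at 4 months (0.98, FDR 0.00229). The ficolin gene Fcna fell at 4 and 6 months (-0.84 and -0.96). The other 7, which include C2 and C4a, were called at no age between genotypes.

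Of 12 regulators, 0 were called higher at any of the 4 ages in limma, 0 were higher at an unadjusted p under 0.05, and 0 were called higher with moderated variances. With 1.58% to 11.3% of all genes called higher at these ages, a count of 0 of 12 is near that share. Vtn (vitronectin) fell at 4 and 6 months (-1.14 and -1.03) and Cd46 at 6 months (-0.75, FDR 0.0141). The other 10 were not called. Within rTg4510 the decay accelerating factor gene Cd55 (0.69, FDR 0.0433) and the phagocytic receptor gene Vsig4 (2.00, SE 0.604, FDR 0.0211) rose from 2 to 8 months. The WT changes of Cd55 (0.49, FDR 0.264) and Vsig4 (1.23, FDR 0.271) had the same sign and were not called, and the difference between genotypes was not tested. Vsig4 in rTg4510 at 2 months was 0.58 to 2.54 above the lowest value of its library. Vtn in rTg4510 at 6 months was 1.41 to 1.98 above it. The caution on low values given for Cfb holds for both.

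Of 9 other receptors and binding proteins, all were in the table. Itgax, the alpha chain of complement receptor 4, had the largest change, with log2 fold changes of 1.20, 3.85, 3.43 and 3.19 at the 4 ages (FDR 2.8e-07, 3.59e-15, 6.52e-16 and 4.63e-14). Itgam, the alpha chain of complement receptor 3 and the CD11b protein that the beads bind, went the other way. Every rTg4510 library lay below every WT library at all 4 ages, and the fall was called at 6 months (-0.62, SE 0.0542, FDR 8.7e-09). It was -0.24 (FDR 0.00798) at 2 months and -0.38 (FDR 9.99e-05) at 4 months, both under the fold threshold. At 8 months the mean was 8.96 (SD 0.0332) in rTg4510 and 9.54 (SD 0.135) in WT, with a gap of 0.40 between the groups. That fall was also just under the fold threshold and so was not called. C1qbp, a mitochondrial protein that also binds C1q, rose at 4, 6 and 8 months (0.66, 0.80 and 0.89). Cr2, a complement receptor of B cells, fell at 6 months (-1.55, FDR 0.000872), when 0 of 4 B cell markers were called and their median log2 fold change was -0.61. At 4 months 2 of the 4 were called lower (median -1.06), and Cr2 was at -0.28 and not called. At 8 months 0 of the 4 were called (median -0.76), and Cr2, not called, had a mean of 6.87 in WT and 5.90 in rTg4510. The part of B cells in the Cr2 fall was not tested. Cd93 rose from 2 to 8 months in both genotypes, 2.01 fold in WT (FDR 0.0127) and 1.81 fold in rTg4510 (FDR 0.00641).

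**Figure D5:**
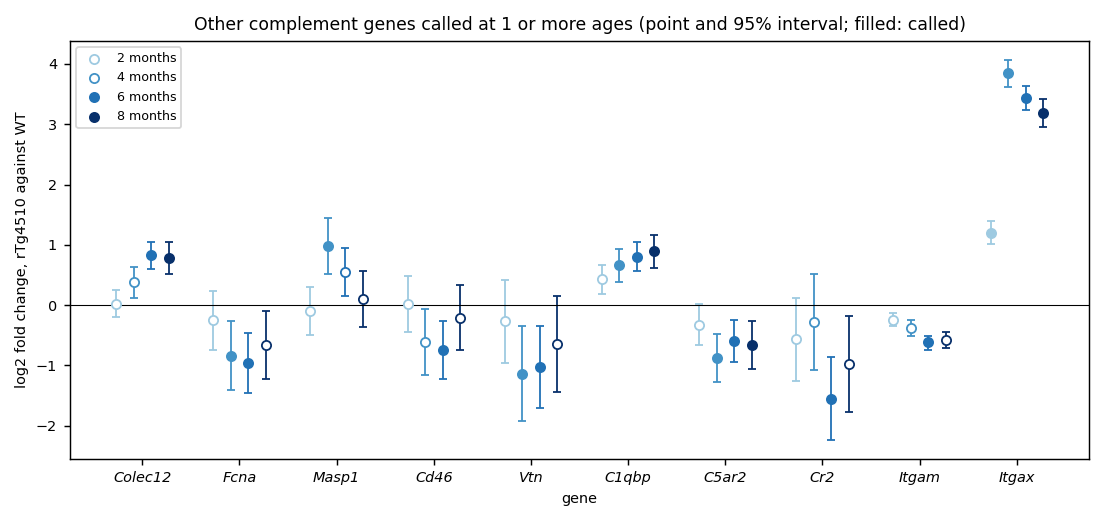
Log2 fold change of rTg4510 against WT (y axis) at 4 ages for the 10 other complement genes called at 1 or more ages (x axis), as the estimate with its 95% interval, filled where called. Itgax reaches 3.85 at 4 months, and C5ar2 is called lower at 4, 6 and 8 months.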

How the data were processed

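Microglia RNA of 32 libraries had been sequenced. The authors summed exon reads over runs, left out exons with few counts, combined the exons of a gene by a robust linear model, and deposited log2 signals after median normalization. The labels name GRCm38; aligner and annotation are not given in the sources used here. The table holds no read total of a library, so no counting interval was computed, and the number of libraries limits the precision.

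The 9 genes and all lists were chosen with earlier results of these data known. All 9 members are named, other complement genes where called at 1 or more ages, the 3 genes most like each member and the genes beside it. Cd55, Vsig4 and Cd93, called only between ages, were named after their values were seen. A limma 3.58.1 model (R 4.3.3) with 8 group means and unmoderated variances (20 residual degrees of freedom) was fitted to 28 libraries and all 18588 genes, with the FDR adjusted within a contrast. Likeness was Pearson's r over 28 libraries. 1 microglia marker is not reported here and was left out of its list. Ratios within a library were compared with exact permutation tests. Positions came from RefSeq (95.9% of Entrez numbers found), and figures from matplotlib 3.10.9 in Python 3.11.15. On simulated data with 200 changed genes among the 18588, 80%, 74%, 81% and 74% were called at 2, 4, 6 and 8 months, 0 with the wrong sign. Alternatives were 2 other scalings, other sets of libraries, moderated variances, a filter, other thresholds, a replicate block and leaving out each library.

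Genotypes share replicate numbers, whose meaning the labels do not give. Deviations of same-numbered libraries had an r of 0.131 to 0.153 at 6 months and 0.15 to 0.291 at 8 months. Differently numbered libraries had -0.127 to 0.0913 and -0.259 to -0.0281 at these ages. The numbers were therefore taken to pair libraries there, on the values alone. At 2 months r was 0.0649 to 0.167 for the same number and -0.194 to 0.0816 for different numbers. At 4 months it was -0.0999 to 0.124 and -0.0709 to 0.154. The ranges overlapped at both ages, and the numbers were not taken to pair libraries. The main model and the permutation tests did not use the pairing, and the replicate block paired libraries at all 4 ages. The SEs and FDRs given for 6 and 8 months therefore leave the pairing out. At 6 months the block gave Cfb an SE of 0.102 in place of 0.186, and C4b 0.201 in place of 0.174.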

Additional observations from a re-analysis of the deposited data

Results flagged for a closer look

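In 5 of 36 groups of 4 libraries (9 genes in the groups of 2 and 6 months), 1 library lay far from the other 3 relative to the range of the group. Chance alone gives about 1 in 20. They were C1qa in WT at 6 months (10.52, replicate 2), C1qb and C1qc in rTg4510 at 2 months (11.17 and 12.10, both replicate 3), C1qc in rTg4510 at 6 months (12.67, replicate 3) and Cfb in rTg4510 at 2 months (3.90, replicate 1).

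The genotype effect differed between 2 and 4 months, by the interaction contrast of the limma model at an FDR under 0.05, for 4 of the 9 genes. By the same rule the genotype effect differed for 1363 of all 18588 genes. The effect at 4 months was larger by 0.45 for C1qb, 1.08 for C3, 1.20 for Cfb and 0.58 for C3ar1.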

How the results depend on the processing

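Of the counts of called genes, these moved by more than 1.5 times. After quantile normalization 0, 3 and 3 of the 9 were called higher at 2, 6 and 8 months and 0 changed with age in WT. With all 32 libraries 0 were called higher at 2 months and 0 changed with age in WT, and 165 genes in all were called at 2 months. With only the 2 groups of an age in the fit, 244, 1561 and 1854 genes were called at 2, 4 and 8 months, and 0 of the 9 were lower at 4 months. Leaving out genes below the 25th percentile of mean signal, which removes C3 and Cfb, left 2 of the 9 higher at 4 months, 0 effects that changed from 2 to 4 months, 0 that changed with age in WT and 2 in rTg4510. FDR alone called 1121, 4317, 6332 and 4784 genes. A threshold of 2 fold called 70, 1287, 2036 and 1665, with 0, 2 and 2 of the 9 higher at 2, 6 and 8 months and 0 lower at 4 months. Apart from the filter, the cause of these moves was not tested.

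Leaving out each of the 28 libraries in turn gave 0 to 1 members lower at 4 months (0 without WT 4 months replicate 1), 0 to 1 effects that changed from 4 to 6 months (1 without WT 6 months replicate 2) and 0 to 1 members that changed with age in WT (0 without WT 8 months replicate 2). The counts called higher were 1, 4, 5 to 6 and 6.

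Values that were not called changed sign. After quantile normalization C1qa, C1qb and C1qc at 2 months were -0.14, -0.00 and -0.16. C4b at 8 months was -0.07 with centring on the top genes and -0.07 with all 32 libraries, where C1qa and C5ar1 at 4 months were 0.13 and 0.04. With a library left out, C1qa ranged from -0.03 to 0.11 at 2 months and from -0.15 to 0.06 at 4 months, C1qc from -0.06 to 0.11 at 2 months, C4b from -0.44 to 0.03 at 4 months and from -0.13 to 0.24 at 8 months, Cfp from -0.23 to 0.14 at 8 months and C5ar1 from -0.22 to 0.14 at 4 months.

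The replicate block called 376, 2553, 3712 and 2993 genes at the 4 ages and changed no call of the 9. Centring on the top genes moved the median of all genes by -0.02, -0.06, -0.10 and -0.10.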

Other observations

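The 4 libraries that failed QC held less C1qa and C1qb than the kept libraries of their group, while C1qc was at the kept level. C1qa was at 8.41 and 8.32 in the WT libraries of 4 and 8 months and at 9.07 and 8.92 in the rTg4510 libraries, which is 2.16, 1.62, 1.46 and 1.75 below the mean of the kept libraries. C1qb was 0.57 to 1.42 below that mean, and C1qc 0.01 to 0.23 above it. The shares of all genes that fell at least as far as C1qa in these libraries were 0.43% and 2.99% for WT and 11.1% and 2.24% for rTg4510. For C1qb these shares were 8.07% and 16.1% for WT and 11.7% and 12.8% for rTg4510. In the rTg4510 library of 4 months C4b (-1.85) and Cfp (-1.65) lay further below the kept mean than C1qa (-1.46). C3ar1 was 0.94 and 1.56 lower in the 2 libraries of 4 months. Within the kept libraries the deviations of C1qa had an r of 0.30 with those of C1qb, against 0.94 between C1qb and C1qc.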
